A study of Mus musculus with 14 samples.

Results

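The genes described here are 10 integrin subunits of mouse natural killer (NK) cells, Itga4, Itgae, Itgb3, Itgax, Itga1, Itga2, Itgam, Itgal, Itgb1 and Itgb2, out of 10210 genes listed in the NK count table. They were chosen by name, as a list, and not by a threshold on their values. All 10 were listed in the NK table, and 5 of them (Itgb3, Itga2, Itgam, Itgb1 and Itgb2) also in a table of 12235 genes from tumour stromal cells. Itga1 was too low for the fit across genes and is described by its counts, so that 9 members were tested.

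The libraries are bulk sequencing of the 3′ ends of polyadenylated RNA from sorted primary cells of BALB/c mice. Age is given as 8 weeks for every group, healthy mice included, and females were used for the injections. NK cells came from spleens of healthy mice (3 libraries), from spleens of mice with an orthotopic 4T1-GFP tumour (4 libraries) and from the tumours themselves (4 libraries). Tumours grew from 100000 cells of 4T1, a mouse mammary carcinoma line that here carried green fluorescent protein, placed in the lower left mammary fat pad. Stromal cells sorted from such tumours as sCAFs, a class of cancer-associated fibroblasts, gave 3 more libraries. The spleens served as controls for NK cells inside the tumour, and the labels name no mutation or drug in any group. The NK gate took CD45+ NKp46+ cells that lacked CD3, CD14, CD31, EPCAM and GFP, and the sCAF gate took cells that lacked PDPN, CD45, CD31, EPCAM and GFP. No integrin stood in either gate, while the antibodies of the magnetic kit that enriched NK cells before the sort are not given in the sources used here. Tumours were digested with collagenase A and DNase for 20 min at 37 °C, and spleens were crushed and treated for 5 minutes on ice to lyse red cells, so tissue and preparation cannot be told apart in any contrast of tumour with spleen.

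Integrins are adhesion receptors, each made of an alpha chain and a beta chain, that bind extracellular matrix or counter-receptors on other cells and couple them to the actin cytoskeleton. On leukocytes they wait in a low-affinity state until signals through the small GTPase Rap1 bring talin and kindlin to the beta tail. In NK cells the beta2 integrin LFA-1 holds the cell to its target, alpha4 integrins slow the cell on vessel walls, alpha2 (CD49b) and alphaM (CD11b) serve as markers of conventional mature cells, and alpha1 (CD49a) and alphaE (CD103) are associated with cells that stay in tissue.

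The members lie on 6 mouse chromosomes in build GRCm38, and several are neighbours. Itgam (chr7:128062640-128118491, plus strand) ends 11055 bases before Itgax (chr7:128129547-128150657, plus strand), and Itgal lies on the same arm at chr7:127296260-127335138. Itga2 (chr13:114833081-114932100, minus strand) and Itga1 (chr13:114953096-115101964, minus strand) are 20995 bases apart. Itgb3 spans chr11:104608000-104670476 and Itgae chr11:73090583-73147446, both on the plus strand. Itga4 spans chr2:79255426-79333123, Itgb1 chr8:128685654-128733200 and Itgb2 chr10:77530252-77565708, all on the plus strand. Exons of Itga4 overlap 1124 bases of Cerkl on the opposite strand, those of Itga1 overlap 685 bases of Gm49395, and those of Itgam overlap 3450 bases of Gm49368, on the same strand in both latter pairs. Whether the counting used strand is not given in the sources used here, so reads of each pair cannot be told apart with certainty.

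Promoters from RefSeq (GRCm38.p6) were matched for 6 of the 10 members. The 250 bases before the start are shown for Itga4, the alpha chain with the largest fall in the tumour, and for the neighbours Itgam and Itgax, which differ in how they moved. Capitals mark TGTGGT, the core bound by Runx factors, and GAGGAA, a core of PU.1 sites, each searched on both strands, so that a match on the opposite strand appears as its reverse complement.
Itga4, chr2:79255176-79255425, plus strand: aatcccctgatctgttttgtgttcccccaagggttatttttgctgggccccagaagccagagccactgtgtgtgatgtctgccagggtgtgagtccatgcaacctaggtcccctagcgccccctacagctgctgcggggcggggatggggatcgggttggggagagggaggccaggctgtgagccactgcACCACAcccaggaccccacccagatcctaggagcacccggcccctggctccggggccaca
Itgam, chr7:128062390-128062639, plus strand: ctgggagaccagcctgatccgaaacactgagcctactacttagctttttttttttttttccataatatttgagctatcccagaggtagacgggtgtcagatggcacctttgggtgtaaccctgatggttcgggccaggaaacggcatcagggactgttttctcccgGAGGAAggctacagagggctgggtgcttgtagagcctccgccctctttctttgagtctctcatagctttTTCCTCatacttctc
Itgax, chr7:128129300-128129549, plus strand: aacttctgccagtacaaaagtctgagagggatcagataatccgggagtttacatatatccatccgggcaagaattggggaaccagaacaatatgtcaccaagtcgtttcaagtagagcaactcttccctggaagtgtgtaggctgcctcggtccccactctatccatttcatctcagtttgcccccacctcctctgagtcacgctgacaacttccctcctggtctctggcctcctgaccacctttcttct
The Itga4 window held 1 match to TGTGGT, 60 bases before the start on the minus strand, and none to GAGGAA. The Itgam window held 2 matches to GAGGAA, 84 bases before the start on the plus strand and 15 bases before it on the minus strand. In the Itgax window neither motif was found. Of 32851 mouse promoter windows of the same length, 14% held TGTGGT and 23.3% held GAGGAA, so both are common letters, and a match is a description of the window only.

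Library totals over listed genes ran from 559688 (healthy spleen replicate 1) to 1966963 counts among the NK libraries. A count of 3, taken as the limit that 0 counts allow, corresponds to between 1.54 and 4.62 CPM. Levels are given as CPM, counts relative to library size, with sizes scaled by the trimmed mean of M-values (TMM). Each contrast was tested with edgeR's quasi-likelihood test over 8471 genes, and a call means a p under 0.05 after Benjamini-Hochberg adjustment over those genes. The replicates are separate samples by their labels, and no label says which share an animal. On the second principal component 3 spleen libraries (healthy replicate 1 and tumour-bearing replicates 1 and 2) stood apart from the other 4, a split for which the labels give no batch. Of 14 NK cell markers 13 were listed, with a summed share of counts of 3.40 to 3.62% in healthy spleen, 3.29 to 3.58% in tumour-bearing spleen and 2.31 to 2.77% in tumour NK. Of 12 tested, 6 were called lower in tumour NK against tumour-bearing spleen and 0 higher (13.2 and 15.8% of all genes tested). The 6 were Ncr1, Nkg7, Klrb1c, Prf1, Tbx21 and Cd7. Against healthy spleen 3 were lower and 1, Il2rb, was higher (14 and 16.5% of all genes tested). As the samples are bulk, fewer cells of a type and less RNA per cell cannot be told apart.

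**Figure D1:**
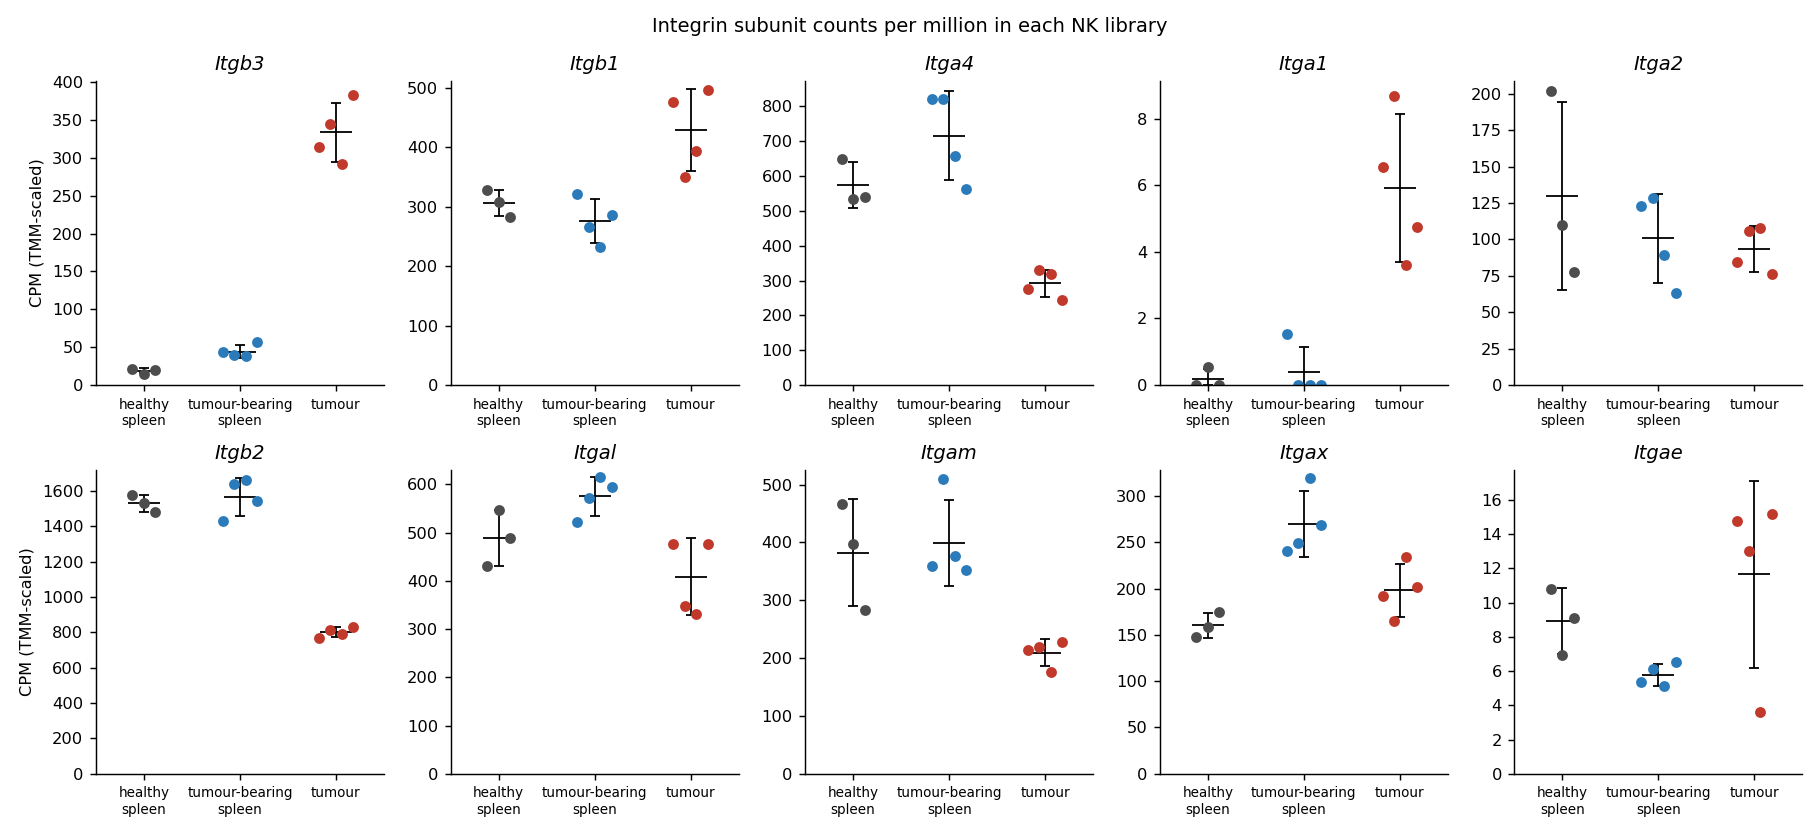
CPM (TMM-scaled, linear axes from 0) of the 10 members in each NK library. Points are libraries, the horizontal line is the group mean and the bars are 1 SD (n = 3, 4 and 4), cut at 0 for Itga1. Itgb3 in the tumour lies far above both spleens, Itga4, Itgb2 and Itgam lie below them, and Itga1 stays under 9 CPM throughout.

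Tumour NK cells were first set against NK cells of tumour-bearing spleens, which asks how the receptors differ between sites when a tumour is present. In this contrast 29% of all genes tested were called in either direction. Of the 9 members tested, 2 were called higher in tumour NK (Itgb3 and Itgb1), where 15.8% of all genes tested were called higher. The members called lower were 5 (Itga4, Itgb2, Itgam, Itgal and Itgax), where 13.2% of all genes tested were called lower. The remaining 2, Itgae and Itga2, did not pass. The median log2 fold change of the 9 was −0.44, against 0.0014 over all genes tested. For 7 of the 9 the libraries of both groups did not overlap in CPM, as was true of 29.7% of genes tested.

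Against NK cells of healthy spleens, where 30.5% of all genes tested were called in either direction, 2 members were again higher (Itgb3 and Itgb1; 16.5% of genes tested were called higher) and 3 were lower (Itga4, Itgb2 and Itgam; 14% of genes tested were called lower). The median of the 9 was −0.26, against 0.0164 over all genes. Both contrasts use the same tumour libraries. For 5 of the 9 the groups did not overlap, against 34.8% of genes tested.

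Itgb3 encodes beta3, which pairs with alphaV to bind vitronectin, fibronectin and osteopontin, and with alphaIIb on platelets. It had the largest change of the 9 members tested. It was at 21.6, 15.0 and 19.8 CPM in healthy spleen replicates 1 to 3 and at 43.4, 39.1, 38.1 and 56.4 CPM in tumour-bearing spleen replicates 1 to 4. In tumour NK replicates 1 to 4 it stood at 314.8, 344.9, 291.6 and 383.2 CPM. The 3 groups did not overlap, and the order was tumour, tumour-bearing spleen, healthy spleen. Itgb3 rose by 2.92 on the log2 scale in tumour NK over tumour-bearing spleen (SE 0.156, 95% interval 2.59 to 3.24, adjusted p of 6.12e-11 by the edgeR test). Over healthy spleen it rose by 4.20 (SE 0.203, 95% interval 3.77 to 4.62, adjusted p 2.12e-11, edgeR). It was the sole member called higher with a 2-fold minimum in both contrasts, and its call held under all 20 alternatives in each.

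The known partners of beta3 did not move with it to the same extent. Itgav, alphaV, is not a member but stood in the list of other subunits. Its CPM were 23.1, 15.5 and 15.7 in healthy spleen, 31.3, 31.3, 24.7 and 21.7 in tumour-bearing spleen and 45.9, 47.8, 36.1 and 46.6 in tumour NK. The tumour libraries lay above all spleen libraries. Itgav rose by 0.68 over tumour-bearing spleen (SE 0.194, adjusted p 0.0128, edgeR) and by 1.33 over healthy spleen (SE 0.236, adjusted p 0.000242). Ratios of counts within a library were taken with 0.5 added to each count. The log2 ratio of Itgav to Itgb3 was −0.0611 ± 0.233 (SD, n = 3) in healthy spleen. It was −0.693 ± 0.464 (n = 4) in tumour-bearing spleen and −2.91 ± 0.128 (n = 4) in tumour NK. No tumour library came near a spleen library on this ratio, which does not depend on scaling between libraries but is not corrected for transcript length. Itgb3 held 0.363 to 0.506% of the counts of all 18 listed integrin subunits in healthy spleen, 0.827 to 1.33% in tumour-bearing spleen and 8.64 to 10.6% in tumour NK.

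Platelets carry beta3 in large amounts, so their markers are given beside it. Of 10 platelet and megakaryocyte markers 3 were listed, Gp1bb, Pf4 and Itga2b. Their summed share of counts was 0.00697 to 0.00884% in healthy spleen, 0.00583 to 0.00778% in tumour-bearing spleen and 0.00114 to 0.00245% in tumour NK. That share is mostly Gp1bb, with 272, 379 and 49 counts in these groups. Itga2b had 26, 47 and 19 counts, and Pf4, which did not fall, had 3, 10 and 15. Gp1bb, a subunit of the von Willebrand factor receptor, fell by 2.47 in tumour NK against tumour-bearing spleen (SE 0.231, adjusted p 1.12e-07, edgeR). Pf4 had 0 to 3 counts in every library but tumour replicate 3, which had 15. Itga2b, the alphaIIb chain, had a log2 fold change of −0.84 (SE 0.451, adjusted p 0.176) and was not called. The part of platelets in the Itgb3 counts was not tested.

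**Figure D2:**
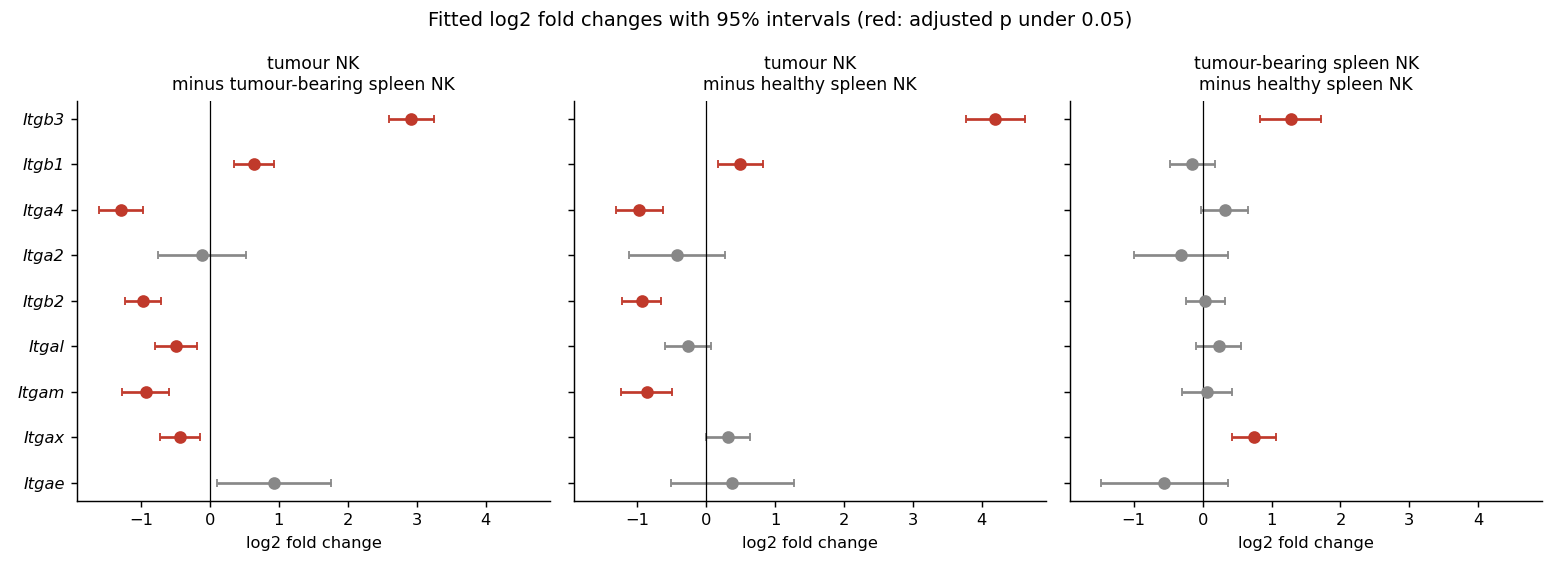
Fitted log2 fold changes (x axis) of the 9 members tested, with 95% intervals, in the 3 contrasts of NK groups. Red points have an adjusted p under 0.05 over 8471 genes. Itgb3 is the farthest from 0 in each panel, and Itgax stands below 0 against tumour-bearing spleen and above 0 between the spleens.

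Itgb1 encodes beta1, the shared chain of the VLA integrins that bind collagen, laminin, fibronectin and VCAM-1. It was at 328.2, 307.6 and 283.1 CPM in healthy spleen, at 321.7, 265.1, 232.7 and 286.4 CPM in tumour-bearing spleen and at 477.1, 350.7, 393.8 and 496.3 CPM in tumour NK. Every tumour library lay above every spleen library, and the spleen groups overlapped. Itgb1 rose by 0.64 over tumour-bearing spleen (SE 0.142, 95% interval 0.34 to 0.94, adjusted p 0.00203, edgeR). The difference from healthy spleen was 0.49 (SE 0.155, adjusted p 0.0217, edgeR). That second call was lost when any of healthy replicates 2 or 3 or tumour replicates 1 or 4 was left out (adjusted p 0.0610 to 0.0912) and under upper-quartile scaling (0.39, adjusted p 0.0623).

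Itga4, alpha4, pairs with beta1 as VLA-4 and with beta7 as the receptor for the gut addressin MAdCAM-1. It was at 650.3, 532.9 and 540.6 CPM in healthy spleen and at 820.1, 821.1, 656.3 and 562.7 CPM in tumour-bearing spleen. In tumour NK it stood at 276.3, 328.9, 317.5 and 245.3 CPM, below every spleen library, while both spleen groups overlapped. Itga4 fell by 1.29 against tumour-bearing spleen (SE 0.153, 95% interval −1.61 to −0.97, adjusted p 2.53e-06, edgeR). Against healthy spleen it fell by 0.97 (SE 0.163, 95% interval −1.32 to −0.63, adjusted p 0.000133). This was the largest fall among the members in both contrasts.

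Because Itga4 was lower and Itgb1 higher, the ratio of their counts turned over. The log2 ratio of Itga4 to Itgb1 was 0.985, 0.792 and 0.932 in healthy spleen and 1.35, 1.63, 1.50 and 0.973 in tumour-bearing spleen. In tumour NK it was −0.787, −0.0921, −0.311 and −1.02, so that every spleen library was above 0 and every tumour library below. Itgb7, the other partner, was at 411.6 ± 49.3 CPM (SD, n = 4) in tumour-bearing spleen and 516.1 ± 86.4 CPM (n = 4) in tumour NK and was not called (log2 fold change 0.33, SE 0.141, adjusted p 0.0888, edgeR). The log2 ratio of Itga4 to Itgb7 was 0.163 to 0.545 in healthy spleen, 0.330 to 1.26 in tumour-bearing spleen and −1.15 to −0.485 in tumour NK.

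Itga1 and Itga2 encode the collagen-binding chains alpha1 and alpha2, which also pair with beta1. Itga1 had 8, 6, 6 and 5 counts in tumour replicates 1 to 4, 2 counts in tumour-bearing spleen, all in replicate 1, and 1 count in healthy spleen, in replicate 2. These are 6.56, 8.69, 3.61 and 4.75 CPM in the tumour libraries, against 1.52 CPM in tumour-bearing spleen replicate 1, 0.535 CPM in healthy replicate 2 and 0 in the other spleen libraries. The listed values did not overlap, but the 3-count limit of healthy replicate 1, at 4.62 CPM, lies above tumour replicate 3. The summed rate in tumour NK was 17.4 times that in tumour-bearing spleen (95% counting interval 4.33 to 151.4) and 20.2 times that in healthy spleen (3.30 to 827.7). In an exact permutation test on the mean CPM (two-sided), p was 0.0286 against tumour-bearing spleen and 0.0571 against healthy spleen, the smallest values that groups of these sizes allow. In a fit without the filter on low counts, over 10210 genes, edgeR's quasi-likelihood test gave log2 fold changes of 3.77 (adjusted p 0.00150) and 3.96 (adjusted p 0.00517). With 25 counts in all tumour libraries together, the size of the difference is imprecise. No listed NK gene had a maximum count under 6, and no spleen library held more than 2 counts of Itga1. Itga1 is therefore in the table only through the tumour libraries, where it is high. Its p-values and intervals depend on that selection and lend the difference no independent support.

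Itga2 encodes CD49b. It was at 201.9, 110.2 and 77.6 CPM in healthy spleen, at 122.7, 128.4, 89.6 and 62.9 CPM in tumour-bearing spleen and at 84.4, 105.8, 107.6 and 76.1 CPM in tumour NK. All groups overlapped. Its log2 fold change was −0.11 against tumour-bearing spleen (SE 0.292, 95% interval −0.75 to 0.53, adjusted p 0.812, edgeR) and −0.43 against healthy spleen (95% interval −1.13 to 0.27, adjusted p 0.342). The 3 spleen libraries that stood apart had its 3 highest spleen values. The log2 ratio of Itga1 to Itga2, with 0.5 added to each count, was −4.79 to −3.50 in tumour NK and −8.85 to −6.01 in the spleens, where the added 0.5 sets most of the value.

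**Figure D3:**
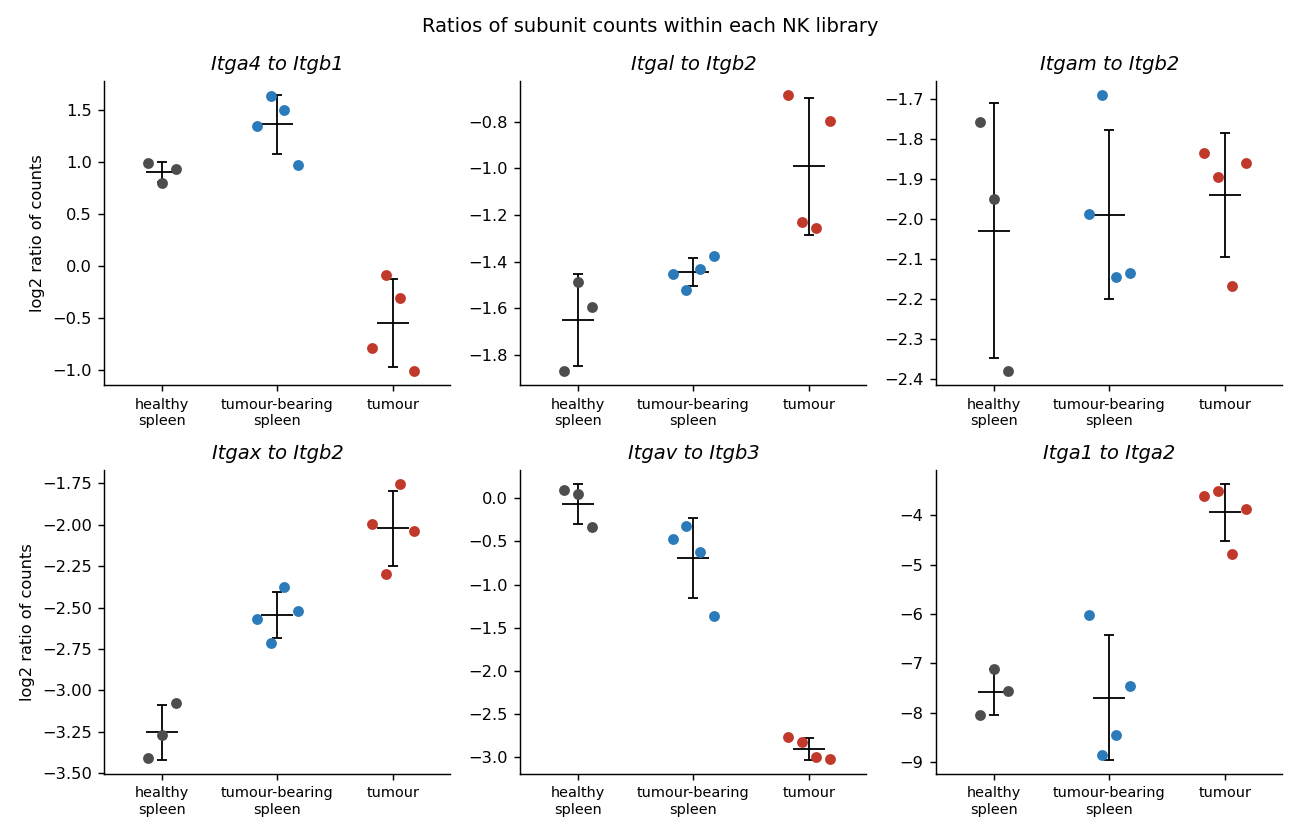
Log2 ratios of subunit counts within each NK library (y axes, own range in each panel). Points are libraries, lines are group means and bars are 1 SD (n = 3, 4 and 4), with 0.5 added to both counts in every ratio. The Itga4 to Itgb1 ratio is above 0 in all spleen libraries and below 0 in all tumour libraries, and the Itgam to Itgb2 ratio overlaps between all groups.

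The 4 members that form beta2 integrins were called lower in tumour NK than in tumour-bearing spleen, where 13.2% of genes tested were, and Itgb2 and Itgam also against healthy spleen. Itgad, the alphaD chain of the same family, is not a member and was not called, at −0.57 against tumour-bearing spleen and −0.07 against healthy spleen (adjusted p 0.262 and 0.918, edgeR), with overlapping libraries. Itgb2 is the beta chain of LFA-1 and of the complement receptors. It was at 1579.5, 1532.9 and 1479.8 CPM in healthy spleen, at 1428.4, 1642.1, 1661.5 and 1543.4 CPM in tumour-bearing spleen and at 767.3, 815.8, 790.1 and 830.0 CPM in tumour NK. Replicates of each group lay close together, and each tumour library was below each spleen library. Itgb2 fell by 0.97 against tumour-bearing spleen (SE 0.127, 95% interval −1.24 to −0.70, adjusted p 8.59e-06, edgeR) and by 0.93 against healthy spleen (SE 0.135, adjusted p 2.74e-05). Its share of all integrin subunit counts was 36.3 to 37.8% in healthy spleen, 33.4 to 36.8% in tumour-bearing spleen and 22.9 to 24.9% in tumour NK.

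Itgam, alphaM or CD11b, forms complement receptor Mac-1 with beta2 and marks late stages of NK maturation. It was at 466.9, 396.5 and 283.9 CPM in healthy spleen, at 359.8, 509.1, 375.7 and 351.5 CPM in tumour-bearing spleen and at 214.8, 218.8, 175.6 and 228.2 CPM in tumour NK. All tumour libraries lay below all spleen libraries. Itgam fell by 0.94 against tumour-bearing spleen (SE 0.165, adjusted p 0.000231, edgeR) and by 0.87 against healthy spleen (SE 0.177, adjusted p 0.000924). Its ratio to Itgb2 overlapped between the groups, with mean log2 values of −2.03 ± 0.319 (SD, n = 3), −1.99 ± 0.212 (n = 4) and −1.94 ± 0.154 (n = 4) in healthy spleen, tumour-bearing spleen and tumour NK.

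Itgal, alphaL or CD11a, is the chain that makes LFA-1, the receptor for ICAM-1. It was at 431.5, 546.3 and 489.4 CPM in healthy spleen, at 521.4, 571.0, 616.1 and 593.8 CPM in tumour-bearing spleen and at 477.1, 347.8, 330.7 and 477.3 CPM in tumour NK. The tumour libraries lay below those of tumour-bearing spleen and overlapped healthy spleen. Itgal fell by 0.50 against tumour-bearing spleen (SE 0.147, adjusted p 0.0155, edgeR), a call lost without tumour replicate 2 (adjusted p 0.0587) and against tumour-bearing spleen replicates 1 and 2 alone (adjusted p 0.112). Against healthy spleen its value was −0.26 (95% interval −0.59 to 0.07, adjusted p 0.223). The log2 ratio of Itgal to Itgb2 was higher in every tumour library (−1.26 to −0.685) than in any spleen library (−1.87 to −1.38).

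Itgax, alphaX or CD11c, is best known from dendritic cells and also occurs on activated NK cells. It was at 147.9, 158.4 and 175.0 CPM in healthy spleen, at 240.1, 249.5, 319.6 and 269.0 CPM in tumour-bearing spleen and at 191.8, 165.2, 234.5 and 201.6 CPM in tumour NK. Tumour-bearing spleen was the highest group and overlapped with no other. Itgax fell by 0.44 in tumour NK against tumour-bearing spleen (SE 0.136, adjusted p 0.0213, edgeR). This call was lost without tumour-bearing spleen replicate 3, tumour replicate 1 or tumour replicate 2 (adjusted p 0.0867, 0.0586 and 0.0757) and against tumour-bearing spleen replicates 1 and 2 alone (−0.30, adjusted p 0.223). Against healthy spleen its value was 0.31 (95% interval −0.01 to 0.63, adjusted p 0.133). Its ratio to Itgb2 was ordered tumour, tumour-bearing spleen, healthy spleen with no overlap, at mean log2 values of −2.02 ± 0.224 (n = 4), −2.55 ± 0.140 (n = 4) and −3.25 ± 0.167 (SD, n = 3).

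Myeloid cells carry alphaM, alphaX and beta2, so their markers are given here. Of 14 macrophage and monocyte markers 9 were listed and 3 tested, of which 1 was called higher in each tumour contrast. Of all genes tested, 15.8% were called higher against tumour-bearing spleen and 16.5% against healthy spleen. Apoe, a lipoprotein, was called against tumour-bearing spleen but not against healthy spleen (adjusted p 0.147, edgeR), and Cd68, a lysosomal glycoprotein, against healthy spleen but not against tumour-bearing spleen (adjusted p 0.209). All 9 together held 0.0171 to 0.0997% of counts in healthy spleen, 0.0178 to 0.0745% in tumour-bearing spleen and 0.0549 to 0.119% in tumour NK, with overlap. These markers other than Ccr2, which NK cells can express and which was set aside after the values were seen, held 0.00107 to 0.00253% of counts in healthy spleen, 0.00179 to 0.00285% in tumour-bearing spleen and 0.00409 to 0.0234% in tumour NK, the highest in tumour replicate 3. Of 11 dendritic cell markers 5 were listed, Zbtb46 and the class II genes H2-Ab1, H2-Aa, H2-Eb1 and Cd74. Flt3, Xcr1, Clec9a, Clec10a, Siglech and Cd209a were not. All 5 listed were called higher in tumour NK against both spleens (15.8 and 16.5% of all genes tested). Their summed share was 0.0316 to 0.0424% in tumour NK, against 0.00536 to 0.00892% in healthy and 0.00891 to 0.0151% in tumour-bearing spleen. Zbtb46 averaged 15.4 CPM in tumour NK and the class II genes 70.0 to 131.9 CPM, so class II genes made up most of that share. Of 12 neutrophil markers 6 were listed and 2 were tested. Both of these, S100a8 and S100a9, were called higher against both spleens (15.8 and 16.5% of all genes tested). All 6 listed together held 0.00601 to 0.0191% of counts in tumour NK, against at most 0.00143% in the spleens. Among them Ngp had 0 counts in healthy spleen, 10 in tumour-bearing spleen and 1 in tumour NK. The part of these cell types in the values of Itgax was not tested.

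Itgae, alphaE or CD103, pairs with beta7 and binds E-cadherin. It was at 10.8, 7.0 and 9.1 CPM in healthy spleen, at 5.3, 6.1, 5.1 and 6.5 CPM in tumour-bearing spleen and at 14.8, 13.0, 3.6 and 15.2 CPM in tumour NK. Tumour replicate 3 was below every spleen library and the other 3 tumour libraries above all of them. Its log2 fold change against tumour-bearing spleen was 0.93 (SE 0.396, 95% interval 0.10 to 1.76, adjusted p 0.0861, edgeR), and 1.30 without tumour replicate 3 (adjusted p 0.00578). That library was also the one with the highest share of macrophage markers. Against healthy spleen the value was 0.37 (95% interval −0.52 to 1.27, adjusted p 0.546).

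The spleens of tumour-bearing and healthy mice were compared to see what splenic NK cells show when a tumour grows elsewhere. Itgb3 and Itgax were the 2 of 9 members called higher in tumour-bearing mice, where 1.23% of genes tested were called higher and 1.58% in either direction. No member was called lower by edgeR's quasi-likelihood test, where 0.354% of genes tested were. At an unadjusted p under 0.05 there were also 0 lower members, and DESeq2 called 0. Itgb3 rose by 1.28 (SE 0.212, 95% interval 0.84 to 1.72, adjusted p 0.00234, edgeR) and Itgax by 0.75 (SE 0.151, 95% interval 0.43 to 1.06, adjusted p 0.0112). Both had groups that did not overlap, as did Itgae, whose tumour-bearing libraries were the lower ones (−0.56, SE 0.442, adjusted p 0.721). Such groups were found for 12.2% of genes tested. Some markers of other cell types differed between these spleens as well. Of 2 T cell markers tested, 1 was called higher, Cd3d, by 1.47 (adjusted p 0.00446, edgeR). Cd3g, at 0.45, was not called (adjusted p 0.535). Cd4, too low to be tested, had a lower mean in tumour-bearing spleen (1.10 against 2.31 CPM). Of 5 dendritic cell markers tested, 1 was called higher, the class II gene H2-Eb1, by 1.67 (adjusted p 0.0119). Cd74, H2-Aa, H2-Ab1 and Zbtb46, at 1.33, 0.86, 0.54 and 0.51, were not called (adjusted p 0.0883 to 0.793). The listed T cell markers, 3 of 12, held 0.00500 to 0.00793% of counts in healthy and 0.0106 to 0.0144% in tumour-bearing spleen, and the dendritic cell markers had the shares given above. Their part in the Itgb3 and Itgax calls was not tested.

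Both calls, at 1.28 for Itgb3 and 0.75 for Itgax, were lost without healthy replicate 2, the deepest of the healthy libraries. Without it Itgb3 was at 1.10 (adjusted p 0.0702, edgeR) and Itgax at 0.73 (adjusted p 0.0929), while 35 genes in all were called higher in place of 104. Neither call was lost when the split of the spleen libraries entered as a block. In that fit Itga2 was called lower in tumour-bearing spleen (−0.46, adjusted p 0.0339). The other members were not called without the block, at 0.32 for Itga4, 0.23 for Itgal, 0.07 for Itgam, 0.04 for Itgb2, −0.15 for Itgb1 and −0.32 for Itga2, with adjusted p from 0.486 to 0.970. For Itgb2 the 95% interval was −0.25 to 0.32.

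Of 16 other integrin subunits on a fixed list 8 were in the NK table and 7 were tested. Itgav alone was called in either tumour contrast, higher in both, where 15.8 and 16.5% of genes tested were. At an unadjusted p under 0.05, 5 of the 7 were higher against tumour-bearing spleen and 2 against healthy spleen. Of all 8471 genes tested, 3335 and 3470 had such a p in these contrasts, in either direction. By edgeR's quasi-likelihood test 0 of the 7 were lower (13.2 and 14% of all genes tested), with 0 at an unadjusted p under 0.05 and 0 by DESeq2. Their median was 0.62 against tumour-bearing spleen. Itga3, Itga5 and Itga6, the other beta1 partners that bind laminin or fibronectin, had values of 0.69, 0.62 and 0.88 (adjusted p 0.0660, 0.0564 and 0.113, edgeR) and were not called. The sum of all 18 listed subunits, members included, was 0.305 to 0.331% of counts in tumour NK, 0.411 to 0.503% in tumour-bearing spleen and 0.392 to 0.505% in healthy spleen.

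Genes that switch integrins on or tie them to actin moved in both directions. Of 50 such adaptors on the list 40 were in the table and 38 were tested. Against tumour-bearing spleen 7 were higher and 8 lower (15.8 and 13.2% of all genes tested), with a median of 0.05. Against healthy spleen 8 were higher and 6 lower (16.5 and 14% of all genes tested). Rasgrp2, the exchange factor known as CalDAG-GEFI that loads Rap1, fell by 1.52 (SE 0.143, adjusted p 1.23e-07, edgeR), from 456.7 ± 32.6 to 159.4 ± 30.9 CPM (SD, n = 4 each). Rasgrp1, its relative that loads Ras, rose by 0.76 (SE 0.158, adjusted p 0.00123). The Rap1 effectors Apbb1ip (RIAM) and Rassf5 (RAPL) fell by 0.50 and 0.52 (adjusted p 0.0121 and 0.00505), and Tln1, talin, fell by 0.42 (adjusted p 0.0449), with overlapping libraries.

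Among the proteins at the actin end, Flna (filamin A) fell by 0.61 and Zyx (zyxin) by 0.57, and Pxn (paxillin) rose by 0.61 (adjusted p 0.00145, 0.00405 and 0.00260, edgeR). Ptk2b, the focal adhesion kinase relative Pyk2, rose by 0.39, the scaffold Nedd9 by 0.94 and Skap1, an LFA-1 adaptor, by 0.44. The kinase Syk fell by 0.83. Of the membrane partners, the tetraspanin Cd82 rose by 0.65 and Cd47 by 0.42, and the tetraspanin Cd151 fell by 0.87. Fermt3 (kindlin-3) and Rap1b had values of −0.07 and 0.08 (95% intervals −0.36 to 0.22 and −0.45 to 0.61) and were not called. Between the spleens edgeR called 0 of the 38, where 1.58% of all genes tested were called, with 1 at an unadjusted p under 0.05 and 0 by DESeq2. Of all 8471 genes tested, 951 had an unadjusted p under 0.05 there, in either direction.

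**Figure D4:**
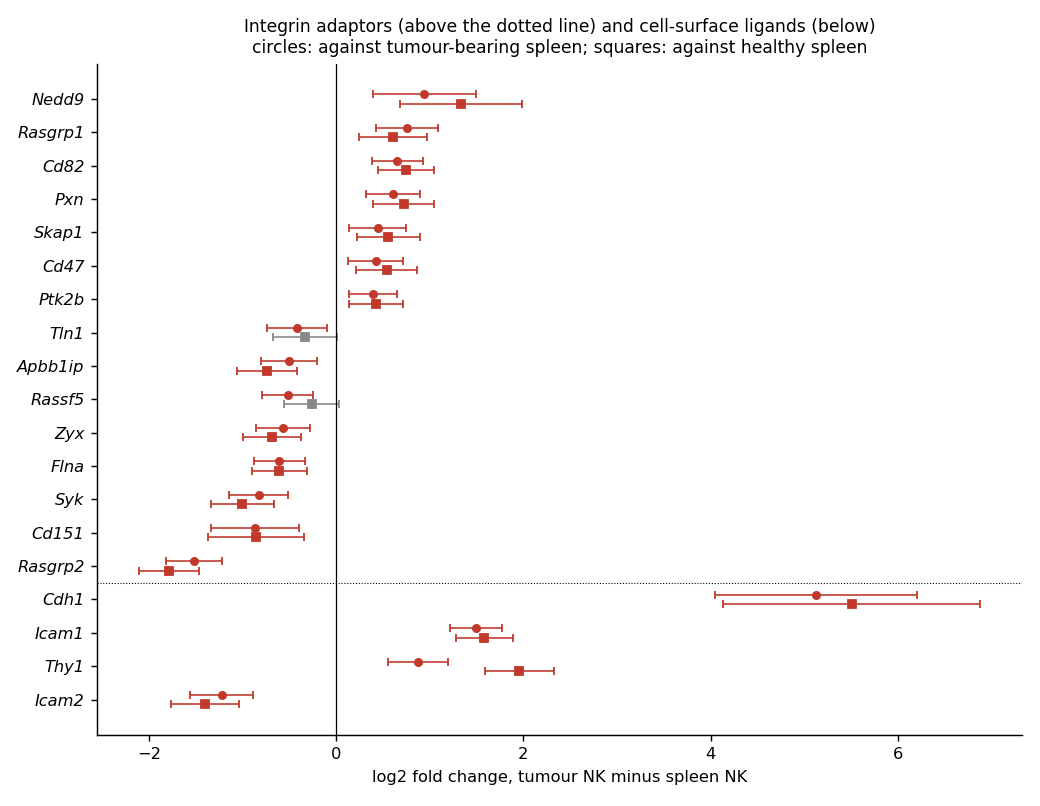
Fitted log2 fold changes (x axis) with 95% intervals for the adaptors and cell-surface ligands called against tumour-bearing spleen. Circles compare tumour NK with tumour-bearing spleen NK and squares with healthy spleen NK, red where the adjusted p is under 0.05. Rasgrp2 is the lowest adaptor and Cdh1 the highest ligand, the latter from spleen libraries with 0 to 4 counts.

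NK cells also make counter-receptors of their own integrins. Of 15 cell-surface ligands 5 were in the table and 4 were tested, with 3 higher and 1 lower against each spleen group (15.8 and 13.2% of all genes tested against tumour-bearing spleen, 16.5 and 14% against healthy spleen). Icam1, a ligand of LFA-1 and Mac-1, rose by 1.50 against tumour-bearing spleen (SE 0.131, adjusted p 4.73e-08, edgeR), from 181.9 ± 13.9 to 514.1 ± 71.7 CPM (SD, n = 4 each). Icam2, another LFA-1 ligand, fell by 1.22 (SE 0.161, adjusted p 8.87e-06), from 200.7 ± 27.7 to 84.7 ± 18.3 CPM. Thy1, a ligand of alphaV beta3 and Mac-1, rose by 0.87 (SE 0.153, adjusted p 0.000232) and was also higher in tumour-bearing than in healthy spleen, by 1.09 (SE 0.173, adjusted p 0.00161), as Itgb3 was.

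Cdh1, E-cadherin, the ligand of alphaE, had 58, 32, 44 and 50 counts in tumour NK replicates 1 to 4. It had 3, 4, 0 and 0 counts in tumour-bearing spleen and 2, 1 and 0 in healthy spleen, so the groups did not overlap. No listed NK gene had a maximum count under 6, so Cdh1 is in the table only through the tumour libraries. Its call depends on that selection. Of the 10 carcinoma and epithelial markers Cdh1 and Epcam were listed, and Epcam had 9, 2, 2 and 5 counts in tumour NK. Krt8 and Krt18, keratins of simple epithelia, were not listed in the NK table. The part of tumour cells in the Cdh1 counts was not tested.

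Matrix ligands were mostly not listed in the NK table, with 7 of 24 in it and 3 tested. Spp1, osteopontin, a ligand of beta3 and alpha4 integrins, rose by 1.09 against tumour-bearing spleen (SE 0.262, adjusted p 0.00398, edgeR), by 3.96 against healthy spleen (SE 0.418) and by 2.87 between the spleens (SE 0.441). It thereby had the same order of groups as Itgb3, with 3.61 ± 1.08 (SD, n = 3), 26.0 ± 4.32 (n = 4) and 55.4 ± 24.5 CPM (n = 4). Lamb1, a laminin beta chain, fell by 1.91 (SE 0.250, adjusted p 8.64e-06). Col1a2 had a value of 1.16 (adjusted p 0.0468) at 9.6 CPM or below in each group mean, with overlapping libraries.

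For each member tested, the 3 genes of the NK table most like it were named by Pearson's r of log2 CPM over the 11 libraries, which share the group structure and the depth of each library, so r is a description. Itgb3 was closest to Pim1 (r 0.996), Lgals3 (0.989) and Orai1 (0.989). Itgb2 was closest to S1pr5 (0.987), Tbc1d10c (0.982) and Klrg1 (0.982), and Itga4 to Fam160b1 (0.969), Lamb1 (0.966) and Dgcr8 (0.939). With the group means taken out, r was 0.888 for Itgb3 with Pim1 and 0.436 with Lgals3, and 0.778 for Itgb2 with S1pr5 and 0.169 with Tbc1d10c.

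The remaining members had other nearest genes. Itgam was closest to Pheta2 (r 0.962), Spn (0.952) and Tm6sf1 (0.944), and Itgb1 to Flt3l (0.948), Abl1 (0.933) and Cd163l1 (0.931). Itgax was closest to Mcm3 (0.940), Tcf19 (0.935) and Kif22 (0.934), genes of DNA replication and the mitotic spindle among them, and Itgal to Trappc4 (0.941), Mrpl44 (0.939) and Dgkz (0.928). Itga2 was closest to Pnrc2 (0.971), Akap8 (0.950) and Ppp4r3b (0.946), and Itgae to Acyp2 (0.950), 1810013L24Rik (0.938) and Polr2m (0.915). For Itga2 and Itgae r was as high or nearly so with the group means taken out (0.976 with Pnrc2 and 0.942 with Acyp2).

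The sCAF libraries have no control group and were described only. They had 1318067 to 2230475 counts, and CPM are on these totals, with a 3-count limit of 1.35 to 2.28 CPM. Itgb1 was at 572.1, 517.4 and 757.6 CPM in sCAF replicates 1 to 3, Itgb2 at 119.3, 80.4 and 39.0 CPM and Itgb3 at 30.9, 63.0 and 65.3 CPM. Itga2 was at 2.69, 6.83 and 2.25 CPM and Itgam at 3.14, 0.759 and 1.50 CPM, both at or near the limit. The members Itga4, Itgae, Itgax, Itga1 and Itgal had no row there. Itgb2 is a leukocyte chain, and its sCAF values were highest in replicate 1 and lowest in replicate 3. The class II genes H2-Aa (3233, 2112 and 760 CPM), H2-Ab1, H2-Eb1 and Cd74 had the same order. The myeloid genes Cd14, Cd68 and Csf1r were instead highest in replicate 3. Summed, the 5 listed dendritic cell markers, class II genes included, held 0.197 to 0.892% of sCAF counts. The part of leukocytes in the Itgb2 values was not tested.

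Counts scaled to the 9215 genes that both tables list put the cell classes side by side, with no test since the tables are separate. On that scale Itgb3 ran from 281.0 to 372.2 in tumour NK and from 33.4 to 71.8 in sCAFs, and Itgb2 from 756.4 to 840.8 and from 42.9 to 128.8. Itgb1 ran the other way, from 361.4 to 482.0 in tumour NK and from 561.9 to 832.5 in sCAFs. Itga2 ran from 73.9 to 109.0 and from 2.48 to 7.41, and Itgam from 169.2 to 225.5 and from 0.824 to 3.39. None of these ranges overlapped. The share of all 9215 genes without overlap was not computed, so this separation cannot be called particular to the members.

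**Figure D5:**
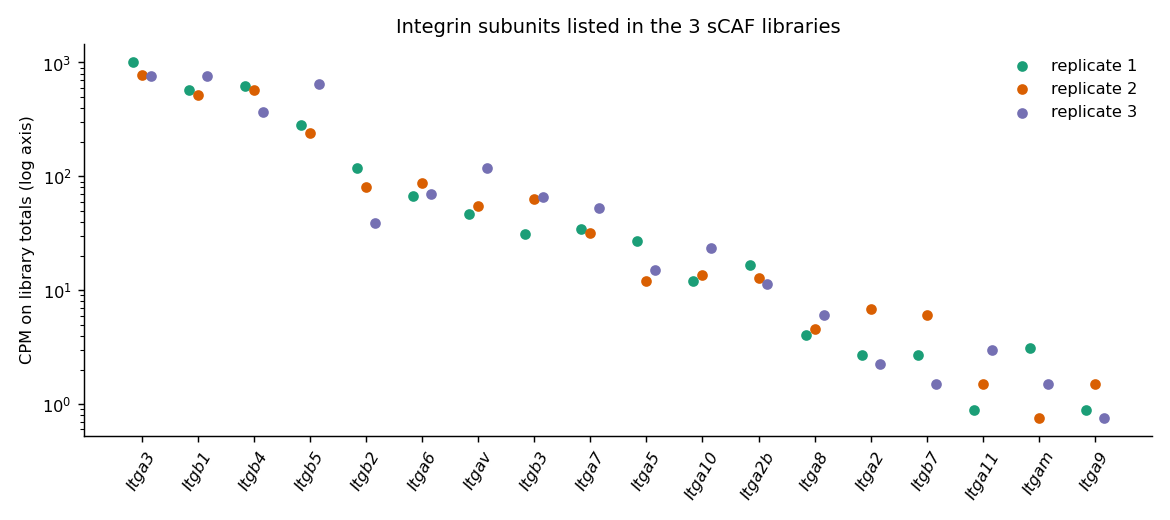
CPM on library totals (log axis) of the 18 integrin subunits listed in the 3 sCAF libraries, 1 point per replicate. Itga3, Itgb1, Itgb4 and Itgb5 are the highest, and Itga2 and Itgam lie at the low end with values at or near the limit of 3 counts.

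Of the 18 subunits listed in sCAFs 12 were also in the NK table. Besides Itgb1, the highest were Itga3, a laminin receptor chain, at 1013.7, 779.9 and 758.3 CPM, Itgb4, the hemidesmosome chain, at 622.7, 572.8 and 367.9 CPM and Itgb5 at 284.2, 240.5 and 644.2 CPM. Of the ligands the NK members bind, Fn1 (fibronectin) was at 2371, 3284 and 3491 CPM, Spp1 at 4355, 3780 and 5717 CPM and Vcam1 at 211.2, 103.9 and 121.6 CPM, whereas Icam1 was at 20.6, 22.0 and 16.5 CPM. The sCAF libraries carried keratins, with Krt18 at 2300, 2993 and 2250 CPM, and a summed share of carcinoma and epithelial markers of 0.510 to 0.632%, above the 0.0525 to 0.141% of the fibroblast markers. All 12 fibroblast markers were listed. Lum, Fap, Acta2 and Pdpn were at 1.05 to 3.31 CPM on average, near the 3-count limit, and the other 8 ran from Postn at 55.1 to Col1a2 at 320.8 CPM. The part of epithelial cells in the levels of Itga3 and Itgb4, which epithelia also express, was not tested.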

How the data were processed

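The authors deposited raw gene counts, unnormalized, in a table for NK cells and another for sCAFs. Per the submitters' processing notes, bcl2fastq, STAR 2.4.2a and HTSeq were used with build mm10. The annotation, strand setting and any use of molecular identifiers are not given in the sources used here. The lowest maximum count of any NK gene was 6, so genes below that were not among those deposited. Totals are therefore sums over listed genes, and intervals and the 3-count limit cover counting error only.

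All 11 NK libraries, in groups taken from the sample titles, entered 1 fit in edgeR 4.0.16 (R 4.3.3) with filterByExpr, TMM scaling, robust quasi-likelihood estimation and group as the only term. The fit was tested on simulated data. Adjusted p-values are Benjamini-Hochberg over 8471 genes, and the SE of a log2 fold change is its size divided by the root of F. These p-values measure the spread between the labelled samples. Alternatives were other scalings, no filter, DESeq2 1.42.0, a 2-fold minimum, only the groups compared, a replicate block, each library left out in turn and the split of the spleen libraries. Likeness used log2 CPM with a prior count of 2. In both headers a pair of names stood joined by spaces, and those columns were read by position.

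The members, lists, markers and alternatives were chosen with earlier results of these data known. Named are all members, the 3 genes most like each member and called genes of the lists, at most 8 per direction of a list. Some called genes of the lists, such as most residency genes, are counted but not named. Coordinates are from GENCODE M21 and promoters from RefSeq. The sCAF libraries entered no test, and their values are set beside tumour NK on the genes both tables list.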

Additional observations from a re-analysis of the deposited data

Results flagged for a closer look

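Of the 20 member-by-group sets of 4 libraries examined, 2 held a library far from the others, where chance alone gives about 1 in 20. Itgam in tumour-bearing spleen replicate 2 was at 509.1 CPM, and the other 3 replicates lay between 351.5 and 375.7 CPM. Without that library Itgam was still called lower in tumour NK against tumour-bearing spleen. Itga1 in tumour-bearing spleen replicate 1 was at 1.52 CPM, which is 2 counts, and the other 3 replicates were at 0. Any count in a lone library passes the rule when the others are at 0, so the rate of 1 in 20 does not apply to Itga1.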

How the results depend on the processing

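The calls of Itgb3, Itga4, Itgb2 and Itgam against both spleens held under each alternative other than the 2-fold minimum, and Itgb3 held there too. With the 2-fold minimum, 1 member was higher and 0 lower in either tumour contrast, and 0 were higher between the spleens. Members lower against tumour-bearing spleen numbered 3 to 5 when each library was left out, and 3 against replicates 1 and 2 alone. Members higher against healthy spleen numbered 1 to 2 over left-out libraries, and 1 under upper-quartile scaling, with the replicate block and against healthy replicate 1 alone, a lone library assumed to vary like the other groups. Members higher between the spleens numbered 0 to 2 over left-out libraries. With the split as a block 1 member, Itga2, was lower. The values that changed sign were not called there. They were Itga2 against tumour-bearing spleen (−0.28 to 0.0279 over left-out libraries, the latter without tumour-bearing replicate 2, and 0.25 against replicates 3 and 4 alone), Itga2 between the spleens (−0.58 to 0.0982, the latter without healthy replicate 1) and Itgam between the spleens (−0.11 to 0.23, below 0 without healthy replicate 3 and, at −0.07, without tumour-bearing replicate 2). The cause was not tested. The Itga1 to Itga2 ratio was −6.77 and −5.92 in healthy spleen with 1 and 2 added to each count, and −6.04 in tumour-bearing spleen with 2, since most spleen counts of Itga1 are 0.

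Same-numbered tumour and tumour-bearing spleen libraries did not deviate together in every pair (r of −0.0471, 0.288, 0.00249 and 0.211). For spleen replicates 2 and 4 the same-numbered tumour library had the highest r, and for replicates 1 and 3 another had. Whether the numbers mark pairs cannot be told from this, and they were not taken as pairs. With the replicate block Itgb1 was at 0.36 against healthy spleen (adjusted p 0.162, edgeR), and 1499 genes were higher and 1321 lower against tumour-bearing spleen, 878 and 619 against healthy spleen in place of 1399 and 1183. Upper-quartile scaling moved the median of all genes by −0.0994 and −0.101 in the tumour contrasts and the split of calls from 1338 higher and 1115 lower to 1091 and 1530, and from 1399 and 1183 to 1154 and 1569. The 2-fold minimum left 334 higher and 57 lower, 385 and 90, and 6 and 2 over all genes. With tumour-bearing spleen replicates 1 and 2 alone 949 were higher and 546 lower, and with healthy replicate 1 alone 761 and 338. With the split as a block 443 were higher and 248 lower between the spleens, against 104 and 30. Left-out libraries gave 35 to 110 higher and 7 to 32 lower between the spleens and 782 to 1406 lower against healthy spleen, the lowest without healthy replicate 2 each time.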

Other observations

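A list of 14 genes linked to tissue residency of NK cells, none of them a subunit, was set beside Itga1 and Itgae. Of these 13 were tested, and 11 were called higher and 2 lower in tumour NK against tumour-bearing spleen by edgeR's quasi-likelihood test (15.8% and 13.2% of all genes tested), with a median log2 fold change of 2.42. The 2 lower were Prdm1 at −1.12 and Cd160 at −1.27. Between the spleens 1 of the 13 was higher, Xcl1 at 1.54, where 1.23% of all genes tested were. A list of 10 egress and circulation genes had 1 higher and 5 lower against tumour-bearing spleen (15.8% and 13.2% of all genes tested), with a median of −1.13. The 1 higher was Cxcr4, at 3.05, and the 5 lower were S1pr5, Cx3cr1, Cma1, Klrg1 and Klf2. The lists were chosen with results of these data known and are not independent of them.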
